A study of Homo sapiens with 6 samples.

Results

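Glycogen is the branched glucose polymer in which cells store sugar, and the genes described here make it, break it down or set the balance between both. The 9 genes were chosen by name, as the rows of the count files whose identifier was GYS1, GBE1, UGP2, PGM1, PGM2, PYGB, PYGL, PPP1R3B or PPP1R3C. All 9 were found among the 44591 genes listed, and all 9 passed the filter on low counts that left 16222 genes for testing. The libraries came from A2780, a human ovarian cancer cell line labelled as wild type and grown in DMEM with serum. There were 3 libraries from untreated cells, labelled as controls at 48 h. Another 3 came from cells that had received human recombinant CRMP2 (r-CRMP2) in the medium at 40 ng/ml for 48 h. CRMP2, the product of DPYSL2, is a microtubule-associated protein that the study found in the medium of cancer-associated fibroblasts, and the sequencing asked which pathways it changes in tumor cells. No vehicle or other protein was given to the untreated cells as far as the labels state, and a single cell line was sequenced.

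In glycogen synthesis, phosphoglucomutase converts glucose 6-phosphate to glucose 1-phosphate, UDP-glucose pyrophosphorylase joins this to UTP, glycogen synthase adds the glucose to a growing chain, and the branching enzyme moves chain ends to form branches. In breakdown, glycogen phosphorylase releases glucose 1-phosphate from chain ends, which phosphoglucomutase returns to glucose 6-phosphate. Phosphorylation activates phosphorylase and inhibits synthase, and protein phosphatase 1, brought to the glycogen particle by PPP1R3 targeting subunits, reverses both. Liver, muscle and brain are known for their own isozymes, and low oxygen is known to raise several of these genes in tumor cells.

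The 6 libraries held between 21888530 and 25711353 counts. Values per library are given in CPM, which are counts divided by library size after TMM adjustment, and levels of different genes are compared in TPM, which also divides by gene length. Labels do not say whether the replicates were separate cultures, so the p-values measure the spread between these libraries, which may be technical. Of the markers of an epithelial ovarian tumor, KRT8, KRT18 and KRT7 were abundant (mean 1236, 1901 and 803 TPM), PAX8, MUC16 and EPCAM were low (2.12, 1.93 and 6.29 TPM), and WT1 had at most 3 counts in a library. Of the markers of other cells, PTPRC and CD3E of leukocytes had at most 4 and 2 counts. The summed level of 7 fibroblast genes, led by COL1A1, was between 211 and 248 TPM in untreated libraries and between 138 and 150 TPM in r-CRMP2 libraries. Of these genes COL1A1 (log2 fold change -0.41), POSTN (-0.59) and PDGFRB (-0.41) were lower, COL1A2 (0.35) and LUM (0.53) were higher, DCN (0.29) did not pass, and FAP had at most 9 counts. The summed level of 4 leukocyte genes, nearly all of it CD68, was between 28.6 and 33.8 TPM in untreated and between 77.5 and 78.5 TPM in r-CRMP2 libraries. CD68 was higher (log2 fold change 1.69). For 3 endothelial genes the sum was between 3.52 and 3.92 TPM in untreated and between 0.633 and 1.05 TPM in r-CRMP2 libraries. Of these CDH5 was lower (log2 fold change -1.96), and PECAM1 (-1.41) and VWF (-0.45) did not pass. The part of other cells in the results was not tested, and in bulk RNA fewer cells of a type and less RNA per cell cannot be told apart.

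The promoters are shown here because PPP1R3C and GBE1 had the largest log2 fold changes of the 9 genes. RefSeq promoter windows (GRCh38.p14) were found for 8 of the 9 genes, 11 windows in all, and PPP1R3B was not matched. The 250 bases before each start were searched on both strands for ACGTG and GCGTG, the core letters that hypoxia-inducible factors are known to bind, and for CACGTG, which contains ACGTG on each strand and so counts as 2 matches of it. In the PPP1R3C window (chr10:91633072-91633321, minus strand), with the matches in capitals, CACGTG occurs once and ACGTG on either strand 4 times, 2 of these within the CACGTG.
PPP1R3C: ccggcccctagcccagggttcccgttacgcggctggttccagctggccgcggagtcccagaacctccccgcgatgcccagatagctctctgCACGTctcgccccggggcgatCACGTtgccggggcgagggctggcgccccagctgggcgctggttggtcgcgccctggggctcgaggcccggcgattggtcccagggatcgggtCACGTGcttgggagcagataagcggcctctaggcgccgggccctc

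The GBE1 window holds 1 GCGTG and 1 ACGTG, beginning 156 and 112 bases before the start. They lie within chr3:81761787-81761811 and chr3:81761743-81761767 on the minus strand. For comparison, the GYS1 window holds GCGTG once on each strand, beginning 108 and 85 bases before the start. These lie within chr19:48993403-48993427 and chr19:48993380-48993404. The 4 sites are printed with 10 bases on either side and the match in capitals, and each interval spans the 25 bases printed.
GBE1 at 156: ggtgccagccGCGTGagtgggcgga
GBE1 at 112: cccgctccggACGTGcgtcccggca
GYS1 at 108: ccaatgaggaCACGCggaaatcccc
GYS1 at 85: ccgcccccggGCGTGggccaatggc

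At least 1 of the ACGTG and GCGTG letters was present in 8 of the 11 windows, against 43.2% of 35116 windows of the same length. The 11 windows are not separate genes, since PGM1 has 3 and UGP2 has 2, and 7 of the 8 genes held a match. The 43.2% is a share of windows, and no share by gene was taken. A gene with several windows can match more often, and the matches of PGM1 were all in the same window. The 35116 windows were not matched to the 11 windows for base content. ACGTG alone was present in 5 of the 11 windows, against 18.5% of all, and CACGTG in 2, those of PGM2 and PPP1R3C, against 6.34% of all. The windows of GYS1 and PYGB, whose levels did not pass the test, also held a match, and the window of PYGL, whose level rose, held none. A match is a description of letters and not of binding, which was not measured.

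To see how the glycogen genes respond to r-CRMP2, the counts of the 3 treated libraries were compared with those of the 3 untreated libraries by the quasi-likelihood test of edgeR, and p-values were adjusted over the 16222 genes by the method of Benjamini and Hochberg. Of the 9 genes, 7 were higher in r-CRMP2 cells with an adjusted p under 0.05, and none was lower. Among all genes tested, 28.2% were higher and 30.1% lower by the same rule. The 9 genes were chosen with earlier results of these data known, so these shares are a description and no test of the list. PPP1R3C, GBE1 and PPP1R3B were also past a log2 fold change of 1, the threshold of the study, which 5.12% of all genes passed upward and 8.86% downward. For all 9 genes the median log2 fold change was 0.44, beside -0.03 over every gene tested. GYS1 and PYGB did not pass the test. In 8 genes, PYGB being the exception, all 3 r-CRMP2 libraries lay above all 3 untreated libraries in CPM, which held for 30.9% of all genes tested, while 33.3% had all treated libraries below.

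For the smaller differences it mattered whether libraries were scaled beyond their size. The TMM factors were 1.10, 1.12 and 1.12 in untreated and 0.92, 0.88 and 0.89 in r-CRMP2 libraries. Other ways of scaling (RLE size factors and upper quartile factors) and DESeq2 gave the same calls of the 9 genes as TMM. DESeq2 and RLE size factors gave nearly the same log2 fold changes (0.13 for GYS1 and 0.08 for PYGB in both), so they are not separate checks. When TMM was left out and libraries were scaled by their size only, the median of all genes moved by -0.31 on the log2 scale, and 4 of the 9 genes were higher and 2 lower. Over all genes this scaling gave 2171 higher and 8449 lower, against 4574 and 4875 with TMM. PPP1R3C, GBE1, PPP1R3B and PYGL stayed higher under this scaling, UGP2, PGM1 and PGM2 no longer passed, and GYS1 and PYGB turned to the lower side. A change of scaling moves all genes by nearly the same amount. Relative to the median of all genes tested, the difference is therefore nearly the same by construction. It was 1.78 for PPP1R3C, 1.25 for PPP1R3B, 0.72 for PYGL, 0.46 for UGP2, 0.14 for GYS1 and 0.08 for PYGB.

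**Figure D1:**
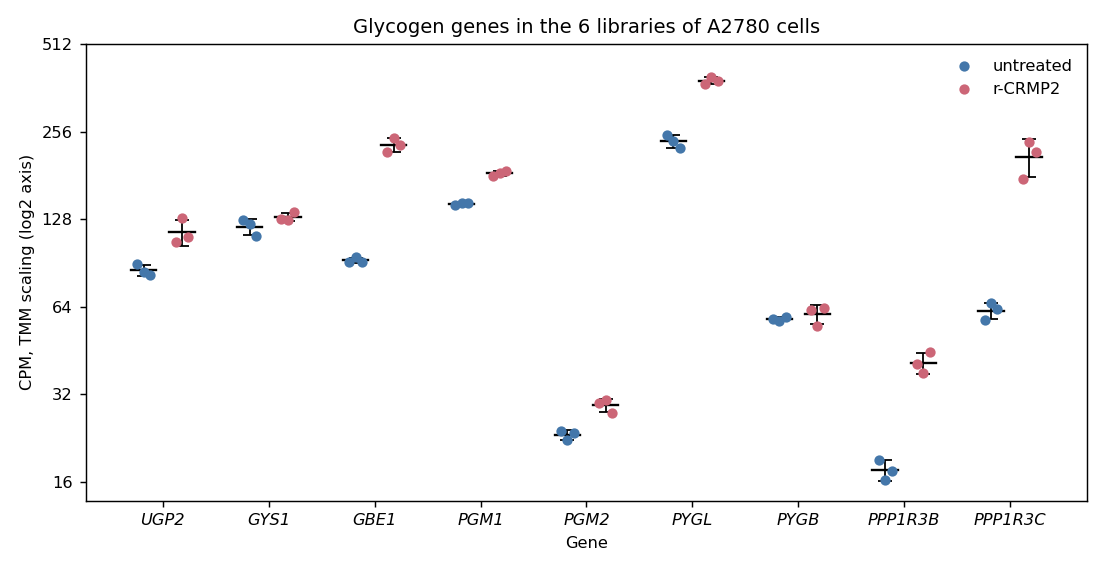
CPM after TMM scaling (log2 axis) of the 9 glycogen genes, with 1 point per library, a horizontal line at the mean and bars of 1 SD (n = 3 in each group). PPP1R3C, GBE1, PPP1R3B and PYGL show the widest gaps between the groups, the points of PYGB overlap, and GYS1 and PYGB turn to the lower side with library size alone.

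On the side of synthesis, GBE1 and UGP2 rose, while the synthase GYS1 did not pass the test. UGP2, UDP-glucose pyrophosphorylase (chromosome 2, 64068098 to 64118696 in the deposited coordinates), makes UDP-glucose, the donor of every glucose unit in glycogen. It had 89.7, 84.0 and 82.4 CPM in untreated replicates 1, 2 and 3 and 107, 129 and 111 CPM in r-CRMP2 replicates 1, 2 and 3. The groups did not overlap, and replicate 2 was the highest of the treated libraries. The mean was 85.4 ± 3.85 CPM in untreated and 115.5 ± 11.7 CPM in r-CRMP2 cells (SD, n = 3 for both), a 1.35-fold rise (log2 fold change 0.44 with a standard error of 0.09, edgeR adjusted p = 4.09e-05). It did not pass with library size alone (0.12, edgeR adjusted p = 0.119).

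GYS1, the glycogen synthase of muscle and most other tissues (chromosome 19, 49471382 to 49496610), had 127, 123 and 112 CPM in the untreated libraries. It had 127.7, 127.6 and 135 CPM in the r-CRMP2 libraries. The groups were separated by a very narrow gap, and the log2 fold change of 0.11 (standard error 0.06) did not pass (edgeR adjusted p = 0.152). On the TPM scale the order was opposite, with 83.9, 83.9 and 75.6 TPM in untreated and 71.4, 65.2 and 73.2 TPM in r-CRMP2 libraries, again without overlap. Scaled by library size, its log2 fold change was -0.20, and GYS1 was then lower (edgeR adjusted p = 0.0101). The direction of GYS1 therefore depends on whether the libraries are scaled beyond their size. With RLE size factors (0.13), upper quartile factors (0.06) and DESeq2 (0.13) its log2 fold change stayed above 0 and did not pass.

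GBE1, the branching enzyme (chromosome 3, 81538850 to 81810950), whose loss causes a glycogen storage disease, had 91.1, 94.7 and 91.2 CPM in untreated and 218, 243 and 230.5 CPM in r-CRMP2 libraries. Every treated library was far above every untreated one, and libraries of a group lay close together. The mean was 92.4 ± 2.07 CPM in untreated and 230.3 ± 12.4 CPM in r-CRMP2 cells (SD, n = 3 for both), a 2.49-fold rise (log2 fold change 1.32 with a standard error of 0.05, edgeR adjusted p = 3.92e-12). This was the 97.0th percentile of the log2 fold changes of all genes tested. Over all alternatives the log2 fold change of GBE1 lay between 0.98 and 1.37.

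The RNA of the branching enzyme was slightly below that of the synthase in untreated cells and well above it in treated cells. The libraries measure RNA, and not protein, enzyme activity or glycogen. The ratio of GBE1 to GYS1 in TPM, which does not depend on the scaling between libraries, was 0.840, 0.899 and 0.952 in untreated and 1.99, 2.22 and 1.99 in r-CRMP2 libraries. The ratio was 2.31 times as high in r-CRMP2 cells (exact permutation test, two-sided, p = 0.10, the smallest that 3 against 3 libraries can give, and 0.167 adjusted over 5 ratios).

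Both phosphoglucomutases rose, by less than the genes past the fold threshold. PGM1, the main isozyme (chromosome 1, 64058947 to 64125916), had 143, 145 and 145 CPM in untreated and 179, 185 and 188 CPM in r-CRMP2 libraries. The groups were far apart beside the spread within them, and PGM1 rose 1.27-fold (log2 fold change 0.35 with a standard error of 0.02, edgeR adjusted p = 4.41e-05). PGM2, which prefers ribose and deoxyribose phosphates as substrates (chromosome 4, 37828282 to 37864559), had 23.9, 22.2 and 23.5 CPM in untreated and 29.9, 30.6 and 27.5 CPM in r-CRMP2 libraries, also without overlap. The PGM2 log2 fold change of 0.34 (with a standard error of 0.06, edgeR adjusted p = 0.00131) stood beside the 0.35 of PGM1. Neither passed with library size alone (0.04 for PGM1 and 0.03 for PGM2). The ratio of PGM1 to PGM2 in TPM lay between 5.79 and 6.30 in untreated and between 5.79 and 6.58 in r-CRMP2 libraries, and the difference of its log2 was 0.01 (exact permutation test, two-sided, p = 0.8). The ratio of UGP2 to PGM1, successive steps toward UDP-glucose, also overlapped between the groups, from 0.781 to 0.862 in untreated and from 0.814 to 0.958 in r-CRMP2 libraries (exact permutation test, two-sided, p = 0.5).

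On the side of breakdown, the phosphorylase best known from liver rose and the one best known from brain did not pass the test. PYGL (chromosome 14, 51371935 to 51411248) had 248, 238 and 225 CPM in untreated and 374, 395 and 381 CPM in r-CRMP2 libraries. Its lowest treated library was above the highest untreated library by a wide margin. The mean was 237 ± 11.7 CPM in untreated and 383 ± 10.7 CPM in r-CRMP2 cells (SD, n = 3 for both), a 1.62-fold rise (log2 fold change 0.69 with a standard error of 0.05, edgeR adjusted p = 1.64e-08). It stayed higher with library size alone (0.38, edgeR adjusted p = 1.01e-05).

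PYGB (chromosome 20, 25228706 to 25278648) had 58.2, 57.2 and 58.8 CPM in untreated and 62.6, 55.1 and 63.4 CPM in r-CRMP2 libraries. In CPM the groups overlapped, since r-CRMP2 replicate 2 was the lowest of the 6 and the other treated libraries were the highest. The log2 fold change was 0.06 (with a standard error of 0.07, edgeR adjusted p = 0.506). Under library size alone it was -0.25 and PYGB was lower (edgeR adjusted p = 0.00669). On the TPM scale all treated libraries were below all untreated ones, with 33.8, 34.2 and 34.8 TPM in untreated and 30.7, 24.6 and 30.1 TPM in r-CRMP2 libraries.

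The balance between the phosphorylase isozymes did not overlap between the groups. The ratio of PYGL to PYGB in TPM was 6.20, 6.03 and 5.55 in untreated and 8.68, 10.4 and 8.71 in r-CRMP2 libraries, 1.56 times as high without overlap (exact permutation test, two-sided, p = 0.10, the smallest possible, and 0.167 adjusted over 5 ratios). PYGL made up 85.4% ± 0.772 of the summed TPM of PYGL, PYGB and PYGM in untreated and 90.2% ± 0.881 in r-CRMP2 libraries (SD, n = 3 in each group). PYGM, the phosphorylase of muscle, had between 2 and 23 counts and was not tested.

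**Figure D2:**
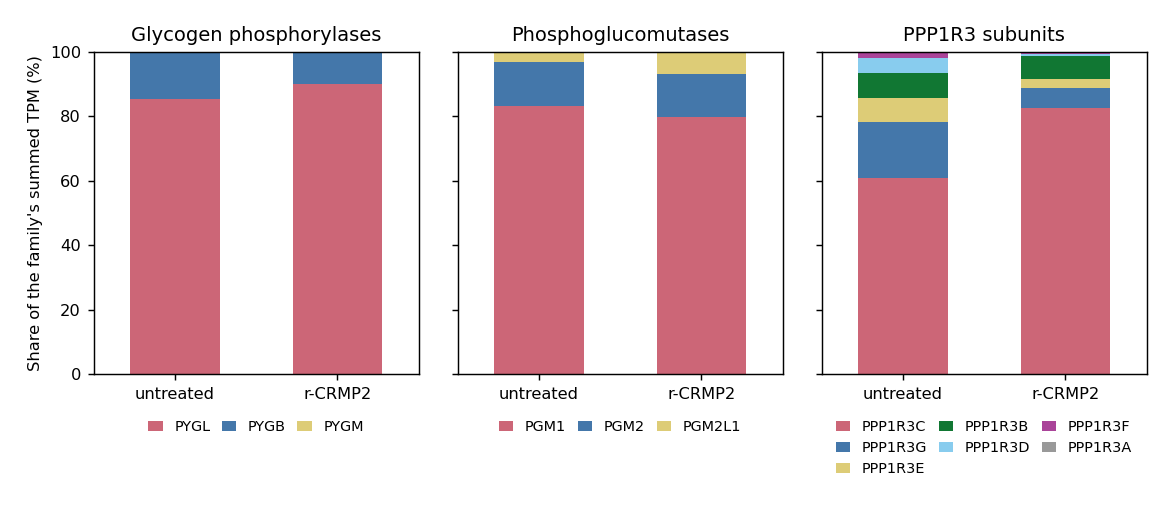
Share (%) of the summed TPM of 3 gene families taken by each member, as the mean of 3 libraries per group. PYGL takes most of the phosphorylase level and PGM1 most of the phosphoglucomutase level in both groups, and PPP1R3C goes from 60.8% to 82.7% of the level of the PPP1R3 subunits.

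Of the subunits that bring protein phosphatase 1 to glycogen, PPP1R3B and PPP1R3C rose. PPP1R3C, also called PTG (chromosome 10, 93388198 to 93392858), binds both the phosphatase and its glycogen-metabolizing substrates. It had 57.6, 65.8 and 62.7 CPM in untreated and 176, 236 and 218 CPM in r-CRMP2 libraries. All treated libraries were far above all untreated ones, and r-CRMP2 replicate 1 was the lowest of them. The mean was 62.0 ± 4.12 CPM in untreated and 209.7 ± 31.0 CPM in r-CRMP2 cells (SD, n = 3 for both), a 3.38-fold rise (log2 fold change 1.76 with a standard error of 0.14, edgeR adjusted p = 8.60e-12). This was the largest fold change of the 9 genes and the 98.5th percentile of all genes tested.

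PPP1R3B, the subunit known as GL for its abundance in liver (chromosome 8, 8993764 to 9009152), had 19.1, 16.3 and 17.4 CPM in untreated and 40.5, 38.0 and 44.8 CPM in r-CRMP2 libraries. The groups did not overlap, and the lowest treated library was well above the highest untreated one. The mean was 17.6 ± 1.41 CPM in untreated and 41.1 ± 3.41 CPM in r-CRMP2 cells (SD, n = 3 for both), a 2.34-fold rise (log2 fold change 1.23 with a standard error of 0.10, edgeR adjusted p = 7.68e-10). On library size alone its log2 fold change of 0.92 was under the fold threshold and still passed the test (edgeR adjusted p = 1.51e-07).

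PPP1R3C was the more abundant of both in every library. The ratio of PPP1R3C to PPP1R3B in TPM was 6.89, 9.22 and 8.21 in untreated and 9.86, 14.1 and 11.1 in r-CRMP2 libraries, 1.44 times as high, with a narrow gap between the groups (exact permutation test, two-sided, p = 0.10, the smallest possible, and 0.167 adjusted over 5 ratios). With any single library left out, the log2 difference of this ratio lay between 0.38 and 0.64. PPP1R3C made up 60.8% ± 1.55 of the summed TPM of the 7 PPP1R3 subunits in untreated and 82.7% ± 2.49 in r-CRMP2 libraries (SD, n = 3 in each group). The summed TPM went from 96.7 ± 6.15 to 190.6 ± 16.3, without overlap.

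**Figure D3:**
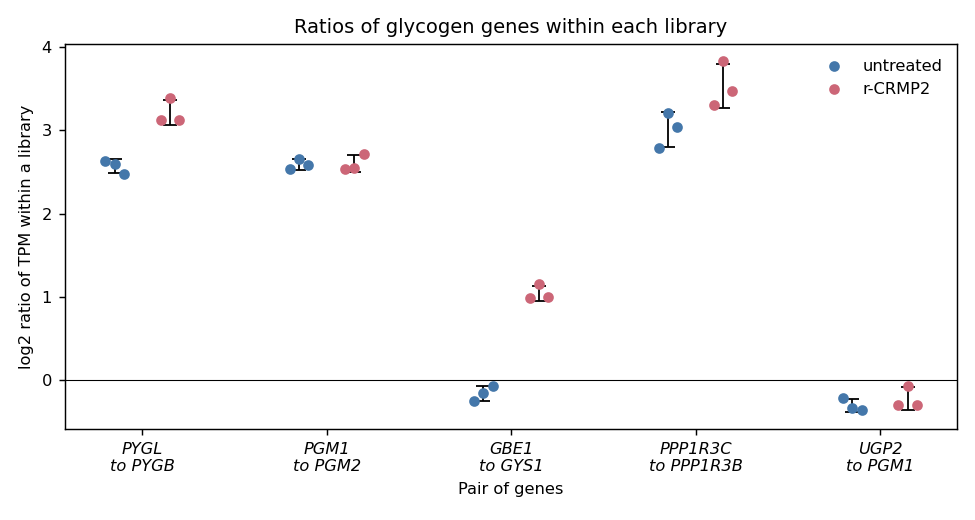
log2 of the TPM ratio of 5 pairs of glycogen genes, with 1 point per library and bars of 1 SD around the mean of each group (n = 3). The ratio of GBE1 to GYS1 shows the widest gap between the groups, with a difference of 1.20 on the log2 scale, and the ratios of PGM1 to PGM2 and of UGP2 to PGM1 overlap.

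The order of the levels, compared per gene length in TPM, differed between the groups. In untreated cells PYGL was the highest (203 ± 8.40 TPM), followed by PGM1 (105 ± 2.34), UGP2 (85.3 ± 2.77), GYS1 (81.1 ± 4.83), GBE1 (72.6 ± 2.54), PPP1R3C (58.8 ± 4.77), PYGB (34.2 ± 0.530), PGM2 (17.5 ± 0.440) and PPP1R3B (7.30 ± 0.475; SD, n = 3 for each). Neighbours in this order did not overlap, except UGP2 and GYS1. In r-CRMP2 cells PYGL was again the highest (262 ± 4.92 TPM), and PPP1R3C (158 ± 17.2) and GBE1 (144 ± 1.90), which overlapped each other, came next, above PGM1 (107 ± 4.20), UGP2 (91.9 ± 4.97) and GYS1 (69.9 ± 4.23; SD, n = 3 for each). PYGB (28.5 ± 3.36), PGM2 (17.6 ± 1.02) and PPP1R3B (13.7 ± 1.53; SD, n = 3 for each) kept the last places.

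The read assignment of the 9 genes was checked on the reference transcripts and the deposited positions. No stretch of at least 100 bases at 95% identity with another gene was found for GYS1, GBE1, UGP2, PGM1, PGM2, PYGB and PPP1R3C. PYGL and PPP1R3B share 108 and 247 bases with antisense genes that overlap them, and PPP1R3B also has matches of 192 and 194 bases to transcripts of DNM1 and POMGNT1. The antisense genes at these places were low, with 0.701 and 1.74 CPM for that of PYGL and 0.192 and 0.599 CPM for that of PPP1R3B in untreated and r-CRMP2 cells. PYGB overlaps the end of ABHD12 on the opposite strand by 3270 bases in the deposited positions, though their exons do not overlap in GENCODE, and ABHD12 had 29.6 and 39.5 CPM. Strand use in the counting is not given in the sources used here, and no part of these overlaps in the results was tested.

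The other glycogen genes moved in both directions. Of 25 further genes of the pathway, 21 were tested, of which 7 were higher, 10 lower and 4 not past the threshold (28.2% and 30.1% of all genes tested were higher and lower). Their median log2 fold change was -0.24. By library size alone 5 were higher and 14 lower, under a scaling that put 2171 of all 16222 genes higher and 8449 lower. GYS2, the liver synthase, had at most 1 count in a library, as did NHLRC1, the ubiquitin ligase malin, and PPP1R3A, the muscle targeting subunit, had at most 4.

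GYG1 and GYG2 encode glycogenin, the protein primer on which a glycogen molecule starts, and both were lower by the edgeR test. GYG2 had 16.3, 13.9 and 15.7 CPM in untreated and 6.27, 6.93 and 7.05 CPM in r-CRMP2 libraries, and the log2 fold change was -1.18 (with a standard error of 0.09, edgeR adjusted p = 5.44e-08). GYG1 passed by less (-0.30, edgeR adjusted p = 0.0224) and did not pass with DESeq2 (adjusted p = 0.0527). Synthesis thus held both the rise of GBE1 and UGP2 and the fall of GYG2.

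In breakdown, GAA, the lysosomal glucosidase that degrades glycogen by another route, was 1.38-fold higher (log2 fold change 0.46, edgeR adjusted p = 2.05e-06). PGM2L1, which makes glucose 1,6-bisphosphate, the activator of phosphoglucomutase, had the largest rise of the 21, with 14.3, 13.6 and 12.4 CPM in untreated and 40.3, 39.8 and 40.9 CPM in r-CRMP2 libraries (log2 fold change 1.59, edgeR adjusted p = 1.19e-11). It took 3.04% ± 0.234 of the summed TPM of the PGM1, PGM2 and PGM2L1 genes in untreated and 6.90% ± 0.139 in r-CRMP2 libraries (SD, n = 3 in each group).

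Among the remaining targeting subunits, PPP1R3D (log2 fold change -1.51) and PPP1R3F (-0.58, edgeR adjusted p = 0.0440) were lower, and PPP1R3E (-0.11) and PPP1R3G (-0.24) did not pass. PPP1R3F lay near the threshold and did not pass with DESeq2 (adjusted p = 0.0887) or with RLE size factors in edgeR (adjusted p = 0.0518). It overlaps a long noncoding gene on the same strand by 2715 bases, which also fell (-1.32). PPP1R3G lies within LYRM4 on the opposite strand (0.27) and LYRM4-AS1 on the same strand (-0.54). The part of these overlaps was not tested. PPP1R3D had 6.36, 6.32 and 7.09 CPM in untreated and 2.86, 1.97 and 2.09 CPM in r-CRMP2 libraries, and it lies within FAM217B on the opposite strand, which also fell (-2.07). Of the catalytic subunits of protein phosphatase 1, PPP1CB (0.40) and PPP1CC (0.48) were higher, and PPP1CA (-0.06) did not pass. PPP1CB no longer passed with library size alone (0.09).

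Phosphorylase kinase, which activates phosphorylase, was split. The subunit genes PHKA1 (log2 fold change 0.47) and PHKG1 (0.75) were higher, and PHKA2 (-0.26), PHKB (-0.47) and PHKG2 (-0.36) were lower, while PHKA1 (0.16) did not pass with library size alone. PHKG1 overlaps SUMF2 by 390 bases on the opposite strand, and SUMF2 was higher by the same log2 fold change of 0.75. PHKG2 overlaps CCDC189 by 3754 bases on the opposite strand, and CCDC189 was lower (-0.42). Of the synthase kinases, GSK3B was lower (-0.24, edgeR adjusted p = 0.00563) and GSK3A did not pass (0.03). Of the genes of glycogen quality control, STBD1, which tethers glycogen to membranes, was 1.89-fold higher (0.92, edgeR adjusted p = 2.83e-08), and EPM2A, the glycogen phosphatase laforin, was lower (-0.93, with a standard error of 0.33, edgeR adjusted p = 0.00721) at 1.13 to 3.79 CPM. STBD1 lies within the read-through gene FAM47E-STBD1, which rose equally (0.92).

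**Figure D4:**
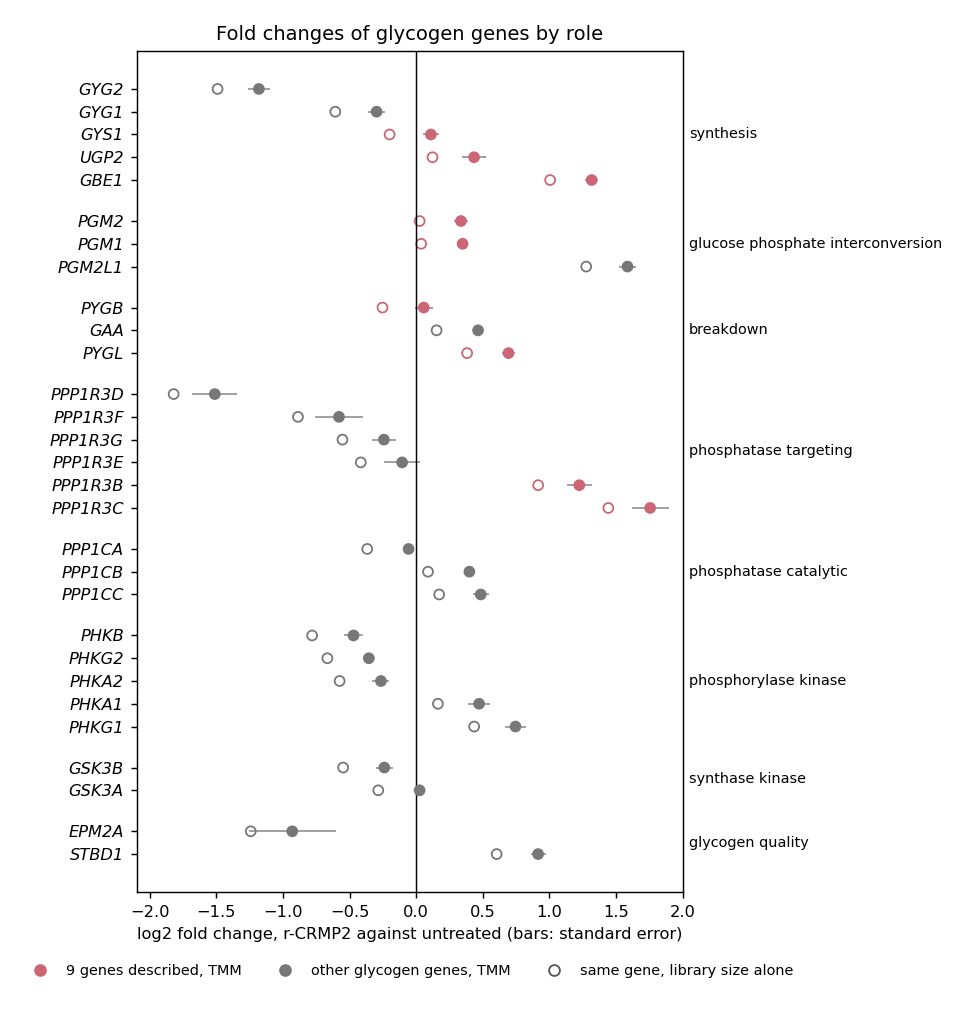
log2 fold change (r-CRMP2 against untreated) of the 9 glycogen genes and of the other tested glycogen genes named here, grouped by role. Filled points use TMM with bars of 1 standard error, and open points use library size alone. The open points lie to the left of the filled ones, and GYS1 and PYGB, like GSK3A, lie on opposite sides of 0 under the 2 scalings.

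Of the 9 genes, PPP1R3C had the largest fold change, and the tested genes nearest to it in gene-centred log2 CPM over the 6 libraries were RARA, a retinoic acid receptor, ARRDC3, an arrestin-domain protein, and TSC22D3, known as GILZ. Their root mean square differences from PPP1R3C were 0.0682, 0.0709 and 0.0716 on the log2 scale, and their log2 fold changes were 1.72, 1.81 and 1.79. The 6 points of each comparison share the split into groups, so this likeness is a description.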

How the data were processed

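Poly(A) RNA of 6 A2780 libraries was sequenced by the study as paired-end Illumina reads. The authors deposited raw counts per gene for each library and TPM, which follow from the counts and the deposited gene lengths (largest difference 4.72e-06). The submitters' processing notes name HISAT2, FastQC, DESeq2 and hg19. The counting tool, annotation and strand use are not given in the sources used here. Gene positions are printed as deposited. Promoter and motif positions are on GRCh38.p14, a different build from the hg19 of the processing notes, so these sets of positions are not to be read together.

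Genes were compared with edgeR 4.0.16 (limma 3.58.1, R 4.3.3): TMM, filterByExpr, quasi-likelihood test, Benjamini-Hochberg over all 16222 genes tested. Standard errors come from log2 CPM with a prior count of 2. Ratios within a library were compared by exact permutation over the 6 libraries. Genes named are the 9 genes, the other listed glycogen and UDP-glucose genes past the threshold or under 10 counts in every library, and 3 genes of like profile; others in these lists are given as not passing, and 2 listed genes are counted but not reported here. The members and lists were chosen with earlier results of these data known. Alternatives were DESeq2 1.42.0, 3 other scalings, 2 other filters, a replicate block, leaving out each library, and limma on log2(TPM + 1), the last chosen after seeing the data. The scripts were tested on simulated counts. Promoter windows are from RefSeq and transcripts from GENCODE 29.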

Additional observations from a re-analysis of the deposited data

How the results depend on the processing

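PPP1R3C, GBE1, PPP1R3B and PYGL kept their direction and passed the adjusted p-value threshold in every alternative run, with log2 fold changes from 1.41 to 1.88, 0.98 to 1.37, 0.82 to 1.29 and 0.37 to 0.73. The calls of the other 5 genes changed with library size alone and with the deposited TPM. RLE size factors, upper quartile factors and DESeq2 each kept 7 of the 9 genes higher and none lower, as with TMM. With library size alone GYS1 (-0.20) and PYGB (-0.25) reversed, and UGP2 (0.12), PGM1 (0.0376) and PGM2 (0.0262) no longer passed. Then 4 genes were higher and 2 lower, and the median of the 9 was 0.12. With limma on the deposited TPM the values were -0.21, -0.26, 0.10, 0.0221 and 0.0104 in the same order, with 4 genes higher, 2 lower, 1 past both thresholds, a median of 0.10, and 4 other glycogen genes higher, GAA no longer passing (adjusted p = 0.0536). A test against a fold change of 2 left PPP1R3C, GBE1 and PPP1R3B past it. Leaving out each library in turn gave medians from 0.36 to 0.50 and 7 genes higher in each fit, and between 8 and 10 of the other glycogen genes lower. The log2 difference of the PGM1 to PGM2 ratio went from -0.0480 to 0.0446, and it was below 0 without r-CRMP2 replicate 3 and without untreated replicate 1 (-0.0157). Over all genes, 831 were higher and 1437 lower past both thresholds with TMM, and 489 and 2553 with library size alone.

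With the replicate number as a block, 7 of the 9 genes were higher and none lower, and the log2 fold change of GBE1 was 1.32. No call of the 9 genes changed, and of the other glycogen genes PPP1R3F no longer passed (adjusted p = 0.0570). Same-numbered libraries did not deviate together (correlations across genes of -0.02, 0.0038 and -0.03). The mean same-numbered log2 difference of the GBE1 to GYS1 ratio was 1.20 (exact sign-flip test, p = 0.25, the smallest that 3 pairs allow). The 9 genes had 399 or more counts in every library, the lowest being PPP1R3B.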

Other observations

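UDP-glucose, the product of UGP2, also feeds other routes, and 6 of their genes were listed. Of these, 1 was higher, 2 were lower and 3 did not pass (28.2% and 30.1% of all genes tested were higher and lower). UGCG, which uses UDP-glucose to make glucosylceramide, had 41.9, 32.8 and 30.4 CPM in untreated and 106, 99.5 and 106 CPM in r-CRMP2 libraries (log2 fold change 1.57 with a standard error of 0.14, edgeR adjusted p = 4.69e-11). UGDH, which oxidizes UDP-glucose to UDP-glucuronate, was lower (-0.35, edgeR adjusted p = 8.40e-04), as was GALT of galactose metabolism (-0.37, edgeR adjusted p = 0.00382). UXS1 (0.09) and UGGT1 (-0.02) did not pass. UGCG stayed higher with library size alone (1.26), and 4 of the 6 genes were then lower, as were 8449 of all 16222 genes.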
